A study of Mus musculus with 84 samples.

Results

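Transcript persistence was measured in mouse fibroblasts at the start of reprogramming by comparing how far each transcript fell after transcription was blocked, with and without a hairpin against Ythdf2. For each transcript the actinomycin D level minus the DMSO level was taken in cells carrying shYthdf2, the same difference in cells carrying shLuc was subtracted, and the result was its persistence. Levels were log2(TPM + 1), and persistence was taken at 4 h, at 8 h and as the mean of both times. A positive value means that the transcript kept more of its level under shYthdf2, and a negative value that it kept less. This reading fails where a transcript was near 0 TPM in the DMSO libraries of a hairpin, as for some named below. The members were 16 samples of 84 in the series, 8 with shYthdf2 and 8 with shLuc.

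All 16 libraries came from mouse embryonic fibroblasts (MEFs) at day 1 of reprogramming that carried retroviral Oct4, Sox2 and Klf4 and were kept in iCD1 medium. They also carried a pSuper-puro hairpin virus, against luciferase (shLuc, the control) or against Ythdf2 (shYthdf2), and were selected with puromycin. Each hairpin was given actinomycin D at 10 µg/ml or its solvent DMSO, for 4 h or 8 h, with 2 libraries of polyA RNA in each of the 8 groups. Another 8 libraries with a hairpin against Ythdf3 (shYthdf3) had the same design and shared the estimate of spread. The labels name 1 hairpin per target, so a result cannot be separated from that hairpin, and nothing says that the libraries of a group came from separate cultures. The p-values therefore measure the spread between these libraries, which may be technical.

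YTHDF2 is a cytoplasmic protein that binds N6-methyladenosine (m6A) in messenger RNA. It recruits the CCR4-NOT deadenylase, which shortens the poly(A) tail and starts decay. Actinomycin D stops RNA synthesis, so what remains of a transcript after it reflects decay of RNA made earlier. TPM gives a transcript's share of all RNA in the library, and a transcript more stable than the average then rises in TPM after the block. In bulk RNA, fewer cells of a type and less RNA per cell cannot be told apart.

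Replicates of a group correlated at 0.928 to 0.945 across genes. At 1 TPM or more, 13938 to 15101 genes were detected in DMSO libraries and 11444 to 13949 in actinomycin D libraries. Mitochondrial transcripts took 1.06 to 3.07% of TPM in libraries numbered 1 and 2.72 to 5.58% in those numbered 2. The fibroblast label was met by Vim at 4510 to 5996 TPM, Col1a1 at 398 to 1568 TPM and Thy1 at 62.2 to 324 TPM, while Pdgfra was low, at 3.1 to 18.4 TPM. Of the pluripotency markers, Nanog stayed at 0.69 TPM or less, Esrrb at 0.46 or less and Zfp42 at 0.57 or less. Not all of that list was silent, as 15 of its 26 genes reached 1 TPM in some library. Its summed TPM was 335 to 468 in shLuc DMSO and 305 to 394 in shYthdf2 DMSO libraries. The macrophage marker Ptprc lay at 0.05 to 2.38 TPM, and the summed TPM of 10 macrophage markers was 33.7 to 71.4 in shLuc DMSO and 36.3 to 83.3 in shYthdf2 DMSO libraries, with 0 of them listed at 0 in all libraries. The summed TPM of 10 neural markers was higher with shYthdf2, at 605 to 646 in DMSO against 464 to 501 with shLuc, and that of 10 keratinocyte markers was lower, at 121 to 156 against 177 to 207. In actinomycin D the neural sums were 699 to 776 with shYthdf2 against 545 to 652 with shLuc, and the keratinocyte sums 124 to 172 against 137 to 217. The sum of 10 fibroblast markers was 6810 to 7692 with shYthdf2 against 6279 to 6720 in DMSO, and 8520 to 9487 against 7819 to 8784 in actinomycin D. That of 10 skeletal muscle markers was 57.8 to 67.8 against 42.5 to 51.0 in actinomycin D, and overlapped in DMSO. Such a sum follows its most abundant members, and Vim, given above, is 1 of the 10 fibroblast markers. In DMSO 1 fibroblast and 1 neural marker were called higher with shYthdf2, beside 0.151% of all genes. No keratinocyte marker was called there. Of the 10 neural markers 5 entered the test, and of the 10 keratinocyte markers 7 did. The part of these shifts in the results was not tested.

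Ythdf2, the targeted gene, was lower with its hairpin before the block and not after it. In DMSO its level was 36.9 and 47.3 TPM at 4 h and 53.1 and 53.9 TPM at 8 h with shLuc. With shYthdf2 it was 13.8 and 12.0 TPM at 4 h and 16.4 and 12.2 TPM at 8 h, below every shLuc DMSO library. The difference was -1.74 (log2, limma adjusted p = 0.00446). In actinomycin D the shLuc libraries fell to 9.48 and 3.54 TPM at 4 h and 6.48 and 9.19 TPM at 8 h, and the shYthdf2 libraries held 5.05 and 4.89 TPM at 4 h and 5.28 and 9.16 TPM at 8 h. The groups overlapped there, and the difference of -0.17 did not pass (limma adjusted p = 0.949). Persistence of the Ythdf2 transcript was accordingly 1.57 ± 0.358 (SE), which did not pass over all genes (limma adjusted p = 0.522). This value starts from a level that the hairpin had already lowered.

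The other readers of the family and Tead2, the transcription factor that the series also knocked down, gave no called persistence. Ythdf1 had a persistence of 0.56 and Ythdf3 of 0.31 ± 0.795 (SE), each with a limma adjusted p of 1. Ythdf3 differed between the replicate numbers, with 24.2 and 34.3 TPM in the shLuc DMSO libraries numbered 1 and 55.7 and 49.2 TPM in those numbered 2. Ythdf1 was higher in actinomycin D with shYthdf2 by 0.86 (limma adjusted p = 0.0294), where its level was 11.1 and 14.5 TPM at 4 h against 4.22 and 4.1 TPM with shLuc. At 8 h it was 3.55 and 5.78 TPM against 2.51 and 4.65 TPM, and the libraries overlapped. Tead2 had a persistence of 0.30 ± 0.294 (SE).

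Few transcripts differed in persistence between the hairpins. Of 19233 genes tested, 3 (0.0156%) passed at an adjusted p under 0.05 for the mean of both times. Etfdh and Snx3 kept less of their level under shYthdf2 (0.0104% of genes) and Ywhag kept more (0.0052%). At an unadjusted p under 0.05 there were 620 genes (3.22%), of which 441 (2.29%) had positive and 179 (0.931%) negative values. The median over all genes was 0.057, and 56.8% of genes were above 0. With the replicate number as a block, which the pairing of the numbers called for, 10 genes passed. Beside the same 3 these included Uchl3, Arpc1a, Morf4l2, Mras and Ppfibp1. The count was 0 without the shLuc actinomycin D 4 h library numbered 2, 1 without the shYthdf2 actinomycin D 8 h library numbered 2, and 5 without the shLuc DMSO 4 h library numbered 2. Without the shLuc 8 h libraries numbered 1 it was 6 (DMSO) and 9 (actinomycin D).

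Etfdh encodes the mitochondrial dehydrogenase that passes electrons from fatty acid and amino acid oxidation to ubiquinone. It lies at chr3:79603788-79628767 (RefSeq, GRCm38.p6). With shLuc, its DMSO level was 42.5 and 47.4 TPM at 4 h and 54.4 and 54.7 TPM at 8 h, and its actinomycin D level was 43.5 and 43.7 TPM at 4 h and 34.6 and 34.1 TPM at 8 h. With shYthdf2, it began at 13.5 and 17.4 TPM at 4 h and 18.6 and 17.3 TPM at 8 h in DMSO and fell to 4.56 and 3.11 TPM at 4 h and 2.0 and 0.9 TPM at 8 h. The groups did not overlap in either treatment. What was left of the DMSO level with shLuc was 102 and 92.1% at 4 h and 63.7 and 62.3% at 8 h. With shYthdf2 it was 33.8 and 17.9% at 4 h and 10.8 and 5.2% at 8 h. The transcript thus started lower and then lost most of what it had. Persistence was -2.03 ± 0.254 (SE, limma adjusted p = 0.0145), negative in 4 of 4 pairs of replicates, from -2.60 to -1.42. The pair values make up the persistence by which genes were taken, with the same sign required at both times. Agreement between pairs, here and for the genes below, is therefore no separate support. The actinomycin D change itself was -2.38 with shYthdf2 (limma adjusted p = 1.88e-07) and -0.35 with shLuc (0.161). The call was lost without the shLuc actinomycin D 4 h library numbered 2 (limma adjusted p = 0.0566).

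Snx3 encodes a sorting nexin of early endosomes that takes part in recycling membrane cargo with retromer. It lies at chr10:42502054-42535369. With shLuc it held its level after the block, at 168 and 186 TPM in DMSO and 199 and 193 TPM in actinomycin D at 4 h, and at 176 and 167 TPM and then 141 and 166 TPM at 8 h. With shYthdf2 it was 64.7 and 60.8 TPM in DMSO and 29.6 and 25.0 TPM in actinomycin D at 4 h, and 72.5 and 54.1 TPM and then 29.4 and 25.8 TPM at 8 h. Between 40.5 and 47.6% of the DMSO level was left with shYthdf2 at either time, against 80.4 to 119% with shLuc. The share left with shYthdf2 was thus about the same at both times. Persistence was -1.16 ± 0.154 (SE, limma adjusted p = 0.0145), negative in 4 of 4 pairs. This call was lost without the shLuc actinomycin D 4 h library numbered 2 (0.0566), the shLuc DMSO 8 h library numbered 2 (0.0502) or the shYthdf2 actinomycin D 8 h library numbered 2 (0.0667).

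Ywhag encodes the gamma form of 14-3-3, an adaptor that binds phosphorylated proteins, and lies at chr5:135908379-135934641. With shLuc it fell from 219 and 179 TPM in DMSO to 78.4 and 66.2 TPM in actinomycin D at 4 h, and from 227 and 188 TPM to 41.1 and 47.5 TPM at 8 h. With shYthdf2 it fell from 385 and 323 TPM to 308 and 253 TPM at 4 h, and from 385 and 350 TPM to 211 and 206 TPM at 8 h. Here the knockdown libraries started higher and fell less. The level left was 35.7 and 36.9% at 4 h and 18.1 and 25.3% at 8 h with shLuc, and 79.9 and 78.4% at 4 h and 54.9 and 58.8% at 8 h with shYthdf2. Persistence was 1.25 ± 0.174 (SE, limma adjusted p = 0.0186), positive in 4 of 4 pairs, from 1.07 to 1.58. The call held in 9 of the 16 fits that each left out 1 library. It was lost without 7 libraries, at limma adjusted p values from 0.0515 to 0.0946: those numbered 1 of shLuc DMSO 4 h, shYthdf2 actinomycin D 4 h and shYthdf2 actinomycin D 8 h, and those numbered 2 of shLuc actinomycin D 4 h, shYthdf2 DMSO 4 h, shYthdf2 DMSO 8 h and shYthdf2 actinomycin D 8 h.

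**Figure D1:**
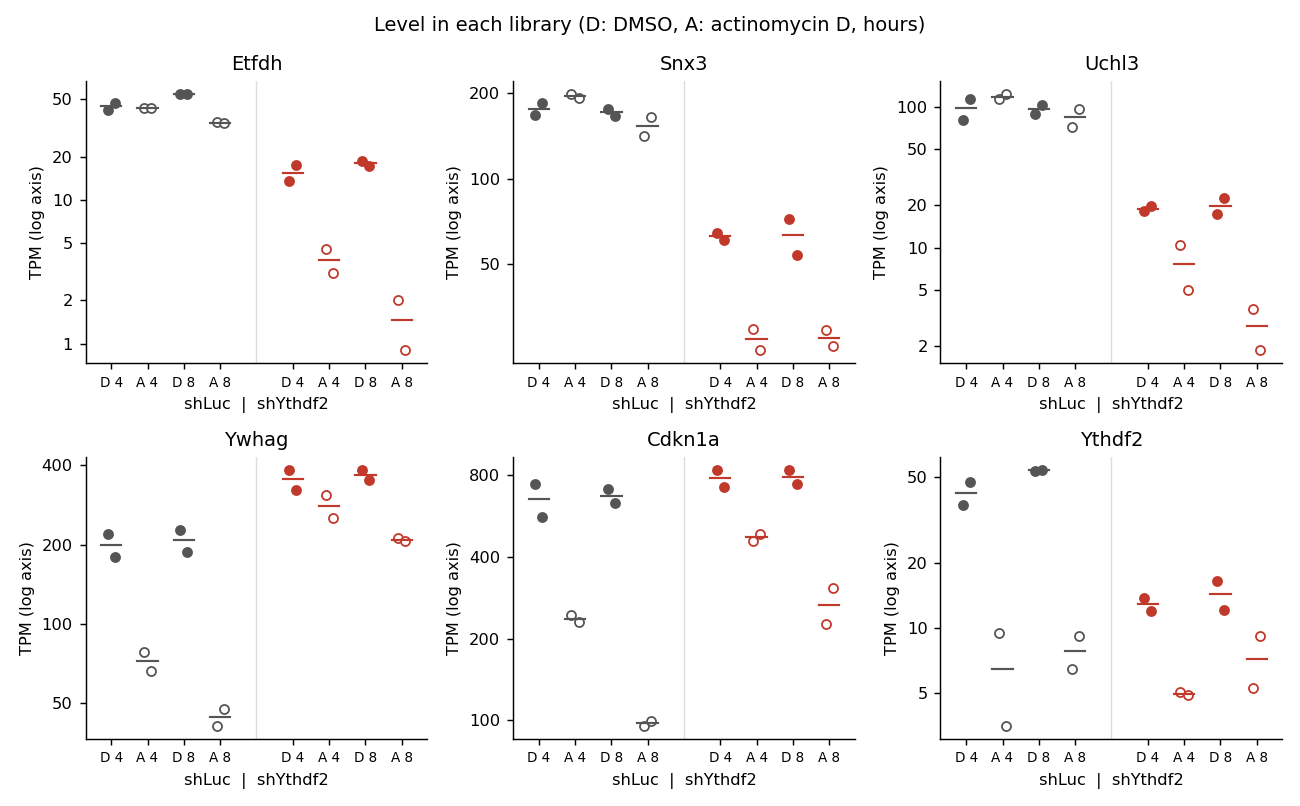
Level (TPM, log axis) of Etfdh, Snx3, Uchl3, Ywhag, Cdkn1a and Ythdf2 in each of the 16 libraries, by hairpin, treatment and time; filled points are DMSO, open points actinomycin D, and the line is the mean of the 2 libraries. Etfdh, Snx3 and Uchl3 lie lower with shYthdf2 in DMSO and drop further in actinomycin D, while Ywhag and Cdkn1a keep more of their level with shYthdf2.

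Beyond the 3 that passed, the rule for naming genes took those with the smallest unadjusted p, and 12 with negative and 10 with positive persistence are described. Arpc1a and Arpc5 encode subunits of the Arp2/3 complex, which nucleates branched actin. Arpc1a had a persistence of -1.17 ± 0.208 (SE) and Arpc5 one of -0.54. Morf4l2 and Actr6, which encode subunits of chromatin complexes, had -0.76 ± 0.14 (SE) and -1.79, and Ss18, a subunit of the BAF chromatin remodeller, had -0.97. None of these passed over all genes without the block. Arpc1a (limma adjusted p = 0.0156) and Morf4l2 (0.0258) passed with it. Morf4l2 gave nearly the same value in each pair of replicates, from -0.78 to -0.75, with 48 and 32% of its mean DMSO level left at 4 h and 8 h with shYthdf2 against 81 and 55% with shLuc.

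Uchl3 encodes a hydrolase that removes ubiquitin and NEDD8 from proteins, and lies at chr14:101653892-101696125. With shLuc it was 81.4 and 114 TPM in DMSO and 113 and 124 TPM in actinomycin D at 4 h, and 89.7 and 103 TPM and then 72.0 and 96.6 TPM at 8 h. With shYthdf2 it was 18.2 and 19.6 TPM and then 10.4 and 4.95 TPM at 4 h, and 17.3 and 22.5 TPM and then 3.68 and 1.86 TPM at 8 h. Every shYthdf2 library lay below every shLuc library. Persistence was -1.93 ± 0.311 (SE), which did not pass (limma adjusted p = 0.0709) and passed with the replicate block (0.0235). The rest of the negative group comprised Poglut1 (-0.83), which glucosylates Notch receptors, the nuclear import receptor Ipo5 (-0.72), the lysosomal cholesterol transporter Npc1 (-0.75) and the leucyl-tRNA synthetase Lars (-0.66). None of these 4 passed in either fit.

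Cdkn1a, the cyclin-dependent kinase inhibitor p21 and a target of p53, was among the genes with positive persistence. In DMSO its level was 744 and 561 TPM at 4 h and 715 and 633 TPM at 8 h with shLuc, and 841 and 726 TPM and then 839 and 744 TPM with shYthdf2. In actinomycin D it was 243 and 230 TPM at 4 h and 95.4 and 99.7 TPM at 8 h with shLuc, and 459 and 487 TPM and then 227 and 307 TPM with shYthdf2. At each time both shYthdf2 libraries in actinomycin D lay above both shLuc libraries. The share of the DMSO mean left was 36.3 and 14.5% at 4 h and 8 h with shLuc and 60.4 and 33.8% with shYthdf2. Persistence of 0.96 ± 0.205 (SE) was positive in 4 of 4 pairs, from 0.71 to 1.38, and did not pass (limma adjusted p = 0.365). The difference in actinomycin D passed at 1.21 (limma adjusted p = 2.24e-04), whereas that in DMSO was 0.25 (0.842). Rbm38, an RNA-binding protein that is itself a p53 target, had a persistence of 1.38 and was higher in actinomycin D by 1.85 (limma adjusted p = 2.05e-04). Both genes were taken by persistence, which the actinomycin D levels enter, so these differences are a part of it. The values of the 4 pairs are a part of it too.

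Tnfrsf12a, the receptor for the cytokine TWEAK, had a persistence of 0.97 ± 0.205 (SE) and, in contrast to most of the group, rose in TPM after the block with shYthdf2. The level left was 111 and 136% of the DMSO mean at 4 h and 8 h with shYthdf2 and 63.9 and 60.3% with shLuc. Gtf3a, a transcription factor for 5S ribosomal RNA, had 0.80, Tspyl1 had 1.06, the sorting nexin Snx8 had 0.98 and the opioid growth factor receptor Ogfr had 0.86. Each of these 5 was called higher with shYthdf2 in actinomycin D, where 1.88% of all genes were. Their limma adjusted p values there were 7.16e-04 or less. The actinomycin D levels enter persistence, by which the genes were taken, so these p-values are no separate support for it. Phox2a, a homeodomain factor of neurons, had 2.54 at low levels, with 3.64 to 10.6 TPM in shLuc DMSO and at most 1.64 TPM in any other library.

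**Figure D2:**
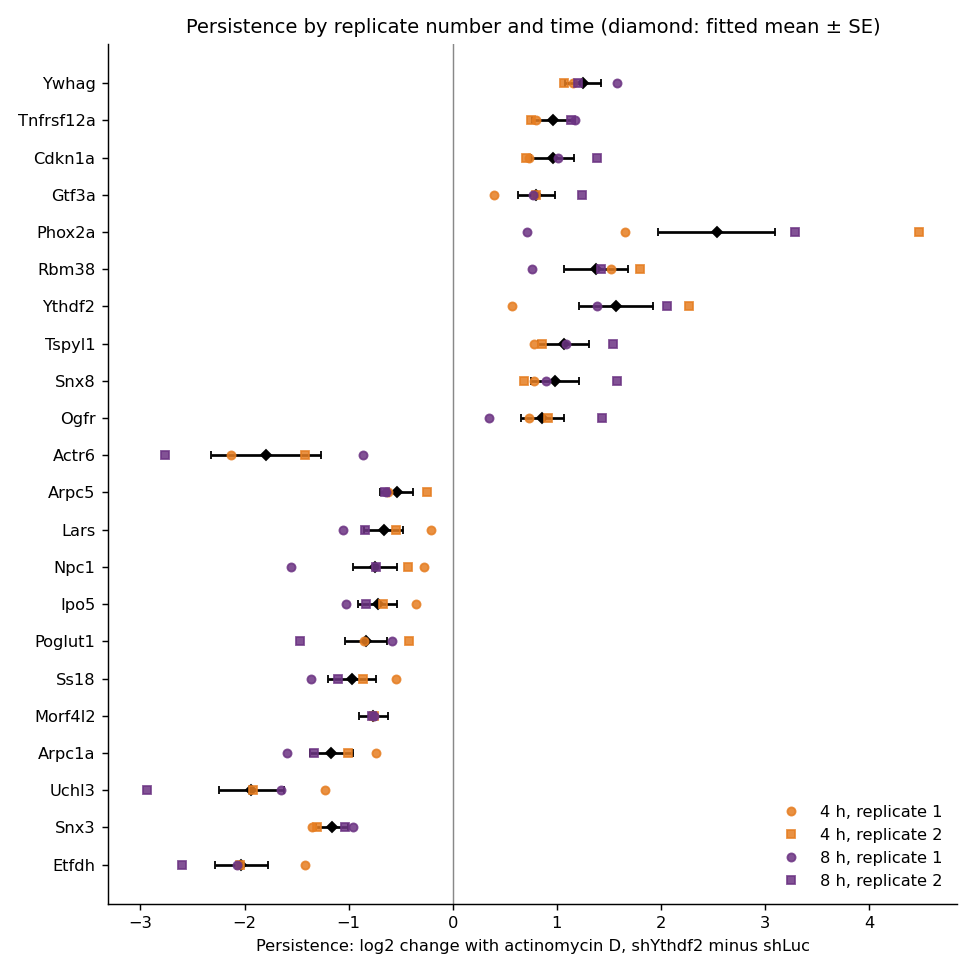
Persistence (log2, shYthdf2 minus shLuc in the change from DMSO to actinomycin D) of 22 genes taken by the naming rule; points are the values from replicate 1 and 2 at 4 h and 8 h, and diamonds with bars the fitted mean and its SE. The Morf4l2 points lie between -0.78 and -0.75, and only Etfdh, Snx3 and Ywhag of these 22 passed without the replicate block.

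All 12 transcripts with negative persistence were lower with shYthdf2 already in DMSO, by 0.23 (Actr6) to 2.26 (Uchl3) on the log2 scale, and 10 of them passed there. In actinomycin D they were lower by 1.52 (Poglut1) to 4.195 (Uchl3). In DMSO the difference of level passed for 66 genes (0.343%), 29 higher (0.151%) and 37 lower (0.192%). In actinomycin D it passed for 541 genes (2.81%), 362 higher (1.88%) and 179 lower (0.931%). With median-ratio scaling the share of higher calls was 20% in place of 43.9% in DMSO and 47.6% in place of 66.9% in actinomycin D. The DMSO count was 37 to 41 without any 1 of the shLuc DMSO 4 h, shLuc DMSO 8 h and shYthdf2 DMSO 8 h libraries numbered 2. The actinomycin D count was 291 to 343 without the shLuc 8 h or shYthdf2 8 h library numbered 2 or either shYthdf2 4 h library. With the replicate block 331 and 1381 genes passed. Levels in the 2 treatments share no library, but both enter persistence, so these values describe its components.

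At single times the calls included small RNAs seen in 1 group only. At 4 h 1 gene passed (0.0052%), and it was Snora33, a small nucleolar RNA listed at 0 in all libraries except the shYthdf2 actinomycin D 4 h pair, at 5.32 and 12.7 TPM. At 8 h 4 genes passed (0.0208%). One was Etfdh, at -2.34 (limma adjusted p = 0.044). Mir1966 and Gm27804 were listed above 0 in the shLuc DMSO 8 h pair alone, at 7.8 and 27.6 TPM and at 5.91 and 20.9 TPM. Gm23631 was listed above 0 in the shLuc actinomycin D 8 h pair alone, at 5.24 and 17.4 TPM. These 4 small RNAs lay outside the naming rule and are named because their values were seen. The Snora33 call held without either DMSO 4 h library numbered 1. It was lost without the shLuc DMSO (limma adjusted p = 0.179) or shYthdf2 DMSO (0.0943) library numbered 2 or either shLuc actinomycin D library (0.0869 and 0.0892), with a pseudocount of 0.1 (0.0726) and with the 16 libraries alone (0.312). Without either shYthdf2 actinomycin D library it did not enter the test. The count of genes became 5 without the shLuc DMSO 4 h library numbered 1 and 4 without the shYthdf2 DMSO 4 h library numbered 1. At 8 h the count fell to 1 without the shLuc actinomycin D library numbered 1, and to 0 without any 1 of the shYthdf2 8 h libraries or the shLuc 8 h libraries numbered 2.

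The difference between the 2 times passed for 0 genes (0%), with 346 at an unadjusted p under 0.05 (1.8%). Etfdh and Uchl3 had larger absolute values at 8 h (-2.34 and -2.30) than at 4 h (-1.73 and -1.57), and Snx3 the larger one at 4 h (-1.33 against -1.00), with differences of time that did not pass. Block counts were 3 genes at 4 h, Snx3 and Snora33 among them, and 9 at 8 h. One or 2 genes passed for the difference of times without the shLuc DMSO 4 h or 8 h library numbered 1 (1 each) or the shYthdf2 DMSO 4 h library numbered 2 (2 genes).

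Most transcripts fell in TPM after the block in both hairpins. With shLuc 6414 genes changed (33.3%), 6006 of them lower (31.2%), and with shYthdf2 5700 changed (29.6%), 5327 of them lower (27.7%). Higher calls were 6.36% of calls with shLuc and 6.54% with shYthdf2. Where the libraries were scaled to the median ratio of genes instead, they were 41.6 and 40.0% of calls. That scaling moved the median change of all genes from -0.47 to -0.04 with shLuc and from -0.42 to -0.04 with shYthdf2, so statements on falling refer to TPM as deposited.

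Median persistence was higher among transcripts that fell fast, and leaving out 1 library reversed this order. Genes were split into 5 equal classes by their actinomycin D change with shYthdf3, whose libraries enter neither arm of persistence. The fastest falling class of 3847 genes, at -1.29 or below with shYthdf3, had a median persistence of 0.13, and 64.3% of its genes were above 0. The medians of the next classes were 0.10, 0.05 and 0.02, and the class that rose the most had a median within 0.001 of 0, with 49.4% of genes above 0. In actinomycin D, 119 genes of the fastest class were higher with shYthdf2 and 17 lower. In the slowest class, also of 3847 genes, 37 were higher and 32 lower. Over all genes 1.88% were called higher in actinomycin D and 0.931% lower. Higher calls were 66.9% of all calls there, and 47.6% with median-ratio scaling. Among genes at 5 TPM or more the medians ran 0.14, 0.13, 0.09, 0.03 and -0.01. In the fastest class the 4 pairs of replicates gave 0.21 and 0.12 at 4 h and 0.02 and 0.15 at 8 h. The gap between the fastest and slowest class was 0.13 in TPM, and single libraries moved it by more than 1.5 times. It was 0.01 without the shLuc actinomycin D 4 h or 8 h library numbered 1, 0.03 without the shYthdf2 DMSO 4 h library numbered 1, 0.02 without the shYthdf2 actinomycin D 4 h library numbered 2, and -0.03 without the shYthdf2 actinomycin D 8 h library numbered 2. It was 0.056 without the shLuc DMSO 4 h library numbered 2, 0.085 without the shLuc DMSO 8 h library numbered 2 and 0.064 without the shYthdf2 DMSO 8 h library numbered 1. It was 0.22 to 0.28 without the shYthdf2 actinomycin D 4 h or 8 h library numbered 1, the shLuc actinomycin D 4 h or 8 h library numbered 2, or the shYthdf2 DMSO 4 h library numbered 2.

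**Figure D3:**
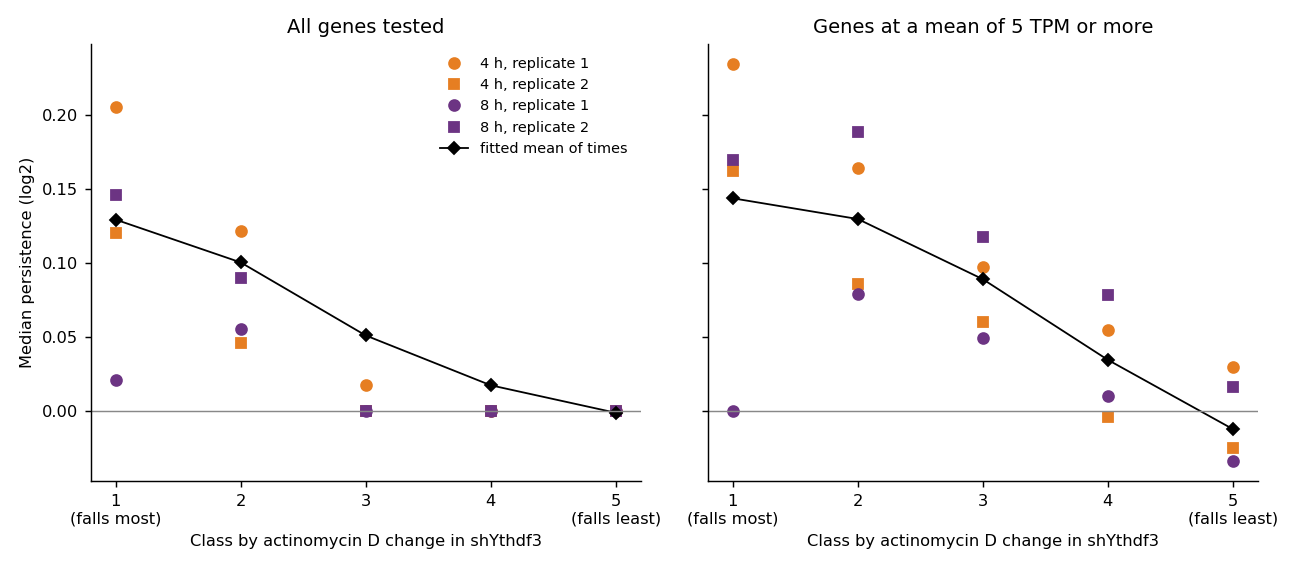
Median persistence (log2) of genes in 5 classes ordered by how far they fell in actinomycin D with shYthdf3, for all genes tested (left) and genes at 5 TPM or more (right); points are the 4 pairs of replicates and lines the fitted median. The fitted medians run from 0.13 to about 0 among all genes tested, while the pairs of replicates in the fastest class range from 0.02 to 0.21.

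The libraries also held spike-in RNA, whose TPM gives the amount of cellular RNA relative to it. How the spike-ins were added is not given in the sources used here. RNA per spike-in after the block was 52.3 and 68.5% of DMSO at 4 h and 45.0 and 49.9% at 8 h with shLuc. With shYthdf2 it was 78.6 and 66.4% at 4 h and 60.6 and 58.3% at 8 h. These values use the summed spike-in TPM, by which the 4 h pairs overlapped between the hairpins and the 8 h pairs did not. By the median over spike-in species the 8 h pairs overlapped too, at 41.3 and 54.6% with shLuc against 56.6 and 52.5% with shYthdf2. The mean log2 change was -0.61 ± 0.192 with shYthdf2 and -0.91 ± 0.259 with shLuc (SD, n = 4), a difference of 0.30 that did not pass an exact two-sided permutation test within times (p = 0.111). The smallest p this design allows is 0.0556, so the test could not reach 0.05. By the sum, the difference was 0.089 without the libraries numbered 1 and 0.51 without those numbered 2. With shYthdf3 it was 76.6 and 62.8% at 4 h and 66.8 and 55.3% at 8 h. Of 92 spike-in species 33 were above 0 in all 16 libraries. Scaling by the spike-ins raised the median persistence of all genes from 0.06 to 0.26, and put 73.4% of genes above 0. Persistence under that scaling was -1.68 for Etfdh, -0.86 for Snx3 and 1.54 for Ywhag. No gene passed there, and the limma adjusted p was 0.997 for each of these 3.

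**Figure D4:**
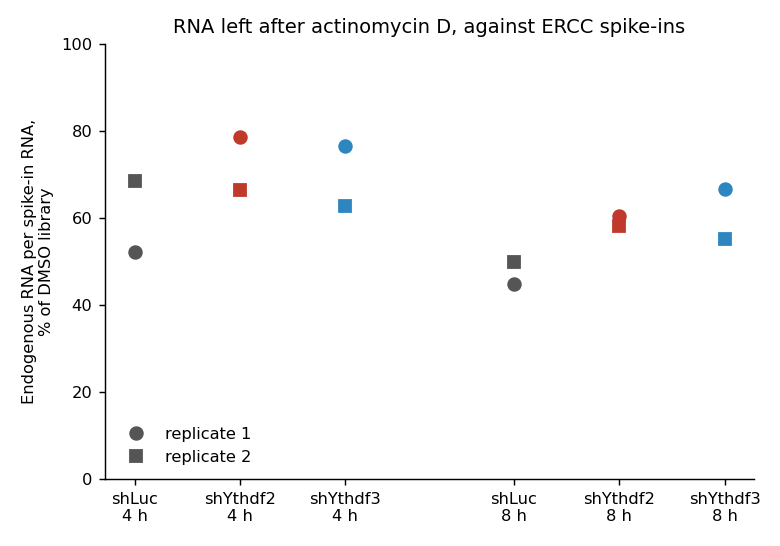
Cellular RNA per spike-in RNA after actinomycin D, as a percentage of the matched DMSO library, for shLuc, shYthdf2 and shYthdf3 at 4 h and 8 h; each point is a pair of libraries of the same replicate number. The shLuc points lie between 45.0 and 68.5% and the shYthdf2 points between 58.3 and 78.6%.

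Compared directly with shYthdf3, persistence under shYthdf2 differed for 9 genes (0.0468%), 4 higher (0.0208%) and 5 lower (0.026%). With median-ratio scaling 5 genes passed and 80% of them were higher, in place of 44.4%. The control cancels in this comparison. The 5 lower genes were Etfdh (-1.88, limma adjusted p = 0.011), Uchl3 (-1.87, 0.046), Arpc1a (-1.52, 0.011), Snx3 (-1.05, 0.0169) and Morf4l2 (-0.94, 0.0177). Persistence of these under shYthdf3, against the same shLuc libraries, was -0.15 for Etfdh, -0.12 for Snx3 and -0.065 for Uchl3 and was positive for Arpc1a (0.35) and Morf4l2 (0.18). The higher ones were Pcbp1 (2.15, 2.70e-04), Ppp4c (2.25, 0.00134), Gm12231 (3.18) and Gm2531 (1.66). Pcbp1, a poly(C)-binding protein, and Ppp4c, the catalytic subunit of protein phosphatase 4, differed mainly through shYthdf3, with persistence values of -1.89 and -1.63 there against 0.26 and 0.62 under shYthdf2. Ywhag was not separated from shYthdf3, where its persistence was 0.94, and the difference was 0.31 (limma adjusted p = 1). The 9 calls became 2 without the shYthdf3 actinomycin D 4 h library numbered 1. They became 4 without the shYthdf2 DMSO 4 h, shYthdf2 actinomycin D 8 h, shYthdf3 actinomycin D 4 h or shYthdf3 actinomycin D 8 h library numbered 2. They became 5 without the shYthdf3 actinomycin D 8 h library numbered 1, or the shYthdf2 actinomycin D 4 h or shYthdf3 DMSO 4 h library numbered 2, and 22 genes passed with the block.

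Libraries that entered none of the persistence values held the same genes without a block of transcription. They came from days 1, 3, 5 and 7 of reprogramming and from MEFs, embryonic stem (ES) cells and induced pluripotent stem (iPS) cells, with 2 libraries per hairpin in each. Ythdf2 itself was lower with shYthdf2 in all 7 settings and passed in 2, ES cells (-1.53, limma adjusted p = 0.00102) and iPS cells (-1.71, 7.5e-04). Elsewhere it differed by -1.63, -2.05, -1.85 and -0.86 on days 1, 3, 5 and 7 and by -0.76 in MEFs. With the replicate block it also passed on days 3 and 5 (limma adjusted p = 0.0188 and 0.0257). All 12 genes with negative persistence were lower with shYthdf2 than with shLuc on every day, in MEFs and in ES cells, and 11 of 12 were lower in iPS cells, where Npc1 was 0.08 higher. Over all genes tested, 44.6 to 49% were lower in these settings. The median difference of the 12 was -0.69, -0.88, -0.58 and -0.55 on days 1, 3, 5 and 7, and -0.38, -0.17 and -0.19 in MEFs, ES cells and iPS cells. With shYthdf3, set against the same shLuc libraries, the medians lay between -0.22 and 0.14.

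Etfdh passed in all 3 cell types. Its level was 28.2 and 24.5 TPM with shLuc and 16.4 and 12.5 TPM with shYthdf2 in MEFs, a difference of -0.83 (limma adjusted p = 0.0115). In ES cells it was 22.8 and 22.8 TPM against 13.7 and 11.9 TPM (-0.79, 0.00647), and in iPS cells 19.5 and 17.8 TPM against 11.02 and 10.14 TPM (-0.76, 0.0119). The libraries of the hairpins did not overlap in any of the 3 cell types. At day 1 of reprogramming the levels were 42.2 and 31.8 TPM against 20.3 and 21.5 TPM, and the difference of -0.79 did not pass (limma adjusted p = 1). In MEFs 6 of the 12 genes passed, beside a background of 0.973% of all genes lower. They were Etfdh, Uchl3 (-1.05), Arpc1a (-0.50), Ipo5 (-0.42), Lars (-0.39) and Morf4l2 (-0.29). In ES cells 3 passed (background 1.74%), Etfdh, Uchl3 (-0.73) and Arpc5 (-0.55), and in iPS cells 2 passed (background 0.901%), Etfdh and Morf4l2 (-0.33). With the replicate block Morf4l2 was lost in MEFs (limma adjusted p = 0.071) and Uchl3 was gained in iPS cells (-0.69, 0.041).

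Without the replicate block Arpc5 was the only one of the 12 to pass during reprogramming, on days 1, 3 and 5, where 0.00941, 0.0424 and 0.0847% of all genes were called lower. With it 3 of the 12 passed on days 3 and 5, as Lars (-1.01 and -1.00, limma adjusted p = 0.0228 and 0.0196) and Morf4l2 (-0.67 and -0.78, 0.0465 and 0.0172) joined Arpc5. On day 7, where 0.0518% of all genes were called lower, 0 of the 12 passed. The Arpc5 level at day 1 was 254 and 235 TPM with shLuc and 95.6 and 79.7 TPM with shYthdf2, a difference of -1.47 (limma adjusted p = 0.0251). On days 3 and 5 the differences were -1.21 (0.0489) and -1.10 (0.0479). In the lifetime libraries it was -1.44 in DMSO (7.62e-06) and its persistence of -0.54 was the nearest to 0 of the 12. Uchl3 at day 1 was 97.9 and 126 TPM with shLuc and 34.8 and 30.2 TPM with shYthdf2, which did not overlap and did not pass (-1.75, limma adjusted p = 0.375).

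Of the genes with positive persistence, 9 other than Ythdf2 were mostly higher with shYthdf2 during reprogramming, and less uniformly so in the cell types, a difference that was not tested. The count higher was 9 of 9 at days 1 and 3, 7 at day 5 and 8 at day 7, with medians of 0.58, 0.42, 0.34 and 0.39. Over all genes 42.6, 41.4, 45.1 and 44.1% were higher on days 1, 3, 5 and 7. Phox2a, among the 9, lay near the floor, at 1.61 and 0 TPM with shLuc against 3.08 and 0 TPM with shYthdf2 on day 3. In MEFs and ES cells 4 of 9 were higher, with medians of 0 and -0.14, and in iPS cells 6 of 9, with a median of 0.01. The MEF median is the value of Phox2a, listed at 0 in all shLuc and shYthdf2 MEF libraries. Over all genes 41.2, 46.7 and 48.3% were higher in MEFs, ES cells and iPS cells. Ywhag was 128 and 155 TPM with shLuc and 236 and 225 TPM with shYthdf2 at day 1, and differed by 0.01 in MEFs and 0.02 in ES cells, where the libraries overlapped. Tnfrsf12a passed at day 7 (1.80, limma adjusted p = 0.0399, background 0.08%), and also with shYthdf3 (1.82, background 0.372%). With the block it passed at day 5 too, with shYthdf2 (1.53, 0.031) and with shYthdf3 (1.47, 0.0252). Of the genes with negative persistence, Arpc1a alone passed with shYthdf3, higher in MEFs by 0.40 (limma adjusted p = 0.0394, background 0.1%), a call that was lost with the block (0.0588), where Poglut1 passed instead, lower at day 3 (-1.56, 0.0257). Cdkn1a was lower in MEFs with shYthdf2 (-0.35, limma adjusted p = 0.0433), which did not pass with the block (0.058), and lower there with shYthdf3 (-0.65, 0.00317, background 0.528%), which did. With shYthdf2 it was higher in ES cells (0.34, 0.029), where 1.91% of all genes were called higher. Of the 20 calls of these genes in the untreated libraries, 17 with shYthdf2 and 3 with shYthdf3, all except Cdkn1a with shYthdf3 were lost without some single library (limma adjusted p from 0.0515 to 0.411). The 20 kept their direction in each such fit.

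**Figure D5:**
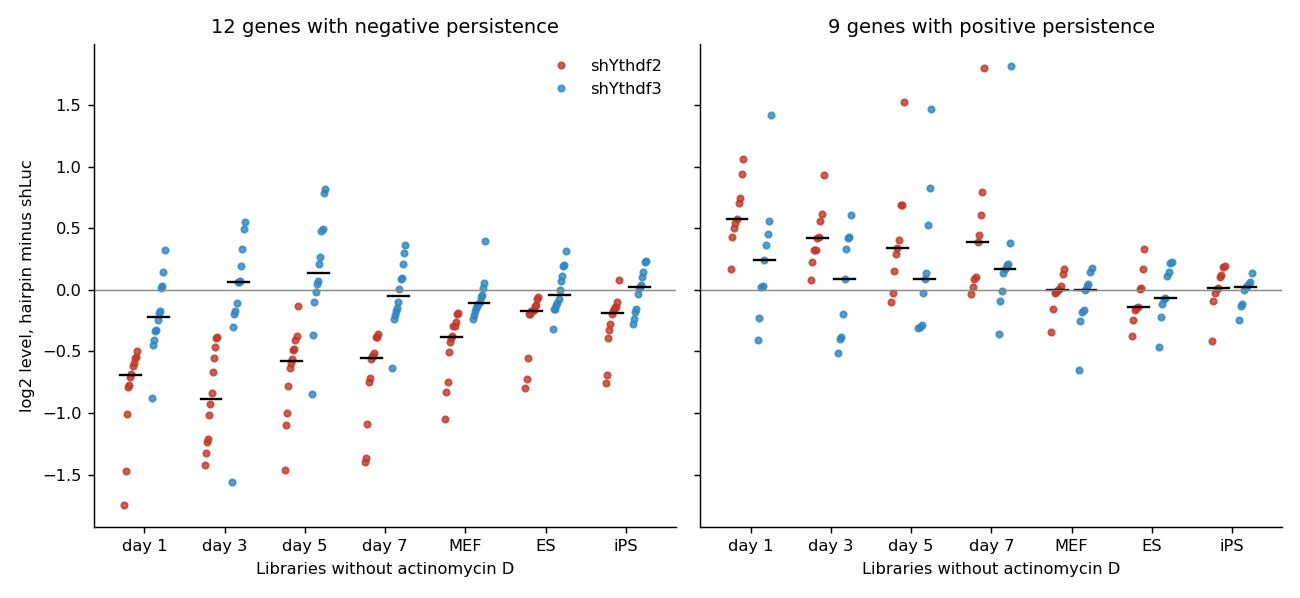
Difference of level (log2, hairpin minus shLuc) of the 12 genes with negative and 9 genes with positive persistence in untreated libraries of days 1, 3, 5 and 7, MEFs, ES cells and iPS cells, for shYthdf2 and shYthdf3; points are genes and bars medians. With shYthdf2 the medians of the 12 genes run from -0.88 to -0.17, and with shYthdf3 from -0.22 to 0.14.

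Of the 40 lists run, none held a member with called persistence without the replicate block. Of 1037 entries tested, 0 passed in the limma fit and 1 passed with the block. An unadjusted p under 0.05 was reached by 18 with positive and 6 with negative values, where 2.29 and 0.931% of all genes reached it. List medians ran from -0.23 (mitochondrial genome transcripts) to 0.39 (inhibitors of cyclin-dependent kinases and D cyclins), beside 0.057 over all genes, and 21 of the 40 lay above it. Leaving out single libraries changed the sign of the median in 32 of the 40 lists, the mitochondrial one included (-0.78 to 0.30), while 6 stayed above 0 and 2 below it in each such fit. Among the 10 cell cycle regulators of the list with the highest median, 9 had values above 0, beside 56.8% of all genes. The same share stands beside the counts above 0 in the lists below. Of the 10, 2 had a positive value at an unadjusted p under 0.05, beside 2.29% of all genes.

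The decay machinery itself gave small values. The 15 genes of the CCR4-NOT deadenylase had a median persistence of 0.03, with 8 above 0, and 12 of them fell after actinomycin D with shYthdf2 and 13 with shLuc, where 27.7 and 31.2% of all genes fell. Btg1, an antiproliferative partner of CCR4-NOT, had -1.10 and did not pass. The 11 writers and erasers of m6A had a median of 0.18, with 7 above 0, and 9 of 11 fell with either hairpin. The 11 readers had a median of 0.18 with 7 above 0. Of 19 transcripts tested that were listed as m6A-modified or YTHDF2-bound, 12 were above 0 with a median of 0.05, and 0 reached an unadjusted p under 0.05. Within it Klf2 had -0.70 and Socs2 had 0.95, neither of which passed.

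Targets of p53 included Cdkn1a. The 20 genes of that list had a median of 0.10, with 12 above 0, and 3 reached an unadjusted p under 0.05 with positive values (2.29% of all genes did), Cdkn1a, Phlda3 (0.52) and Aen (0.37). In actinomycin D 3 of the 20 were higher with shYthdf2 (1.88% of all genes were), namely Cdkn1a, the stress protein Sesn2 (0.96) and Phlda3 (0.63). Sesn2 fell to a mean of 1.43 TPM with shLuc and 4.05 TPM with shYthdf2. The 20 immediate early genes had a median of -0.03, and 20 fell with shLuc (31.2% of all genes) and 17 with shYthdf2 (27.7%). Among them Jund, a partner in the AP-1 factor, was higher in actinomycin D by 0.98 (limma adjusted p = 6.35e-04), with means of 22.0 TPM with shLuc and 40.7 TPM with shYthdf2.

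Metabolic and structural groups lay on both sides of the median. Over all genes 56.8% were above 0. Glycolytic genes had a median of 0.13 with 15 of 16 above 0, and the 24 TEAD and Hippo genes a median of 0.17 with 21 above 0. With single libraries left out, the glycolytic median ran from -0.023 to 0.27 and that of the TEAD and Hippo genes from 0.046 to 0.39. Cholesterol genes had 0.12 with 12 of 20 above 0. Collagens and matrix genes had -0.08 with 8 of 30 above 0, interferon-stimulated genes -0.15 with 8 of 26, and cytosolic ribosomal proteins -0.02 with 15 of 32. The interferon median was -0.40 at 4 h and -0.43 at 8 h in pairs numbered 1, and 0.03 and 0.26 in pairs numbered 2. With single libraries left out it ran from -0.28 to -0.025. The 3 delivered factors had a median of 0.16, at means of 2815 TPM for Pou5f1, 1620 for Sox2 and 2401 for Klf4 in shLuc DMSO, and the viral and endogenous transcripts cannot be told apart. Zinc finger protein genes had a median of 0.06 with 220 of 374 above 0.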

How the data were processed

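RNA abundance was given by the authors as deposited TPM per gene, in a table of 50692 entries that include 92 spike-in species. Per the submitters' processing notes RSEM, Bowtie2 and SAMtools were used with build mm10, with no version given in the sources used here. TPM holds no read total, so depth is unknown and no interval that needs it is given. Another table of spike-in values, with 24 columns that name no sample, was not used.

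Samples were grouped by hairpin, treatment and time as the labels give them. Values were log2(TPM + 1), genes at 1 TPM or more in at least 2 libraries were kept, and 19233 genes entered limma 3.58.1 (R 4.3.3, trended prior) with 1 mean for each of 12 groups over 24 libraries, shYthdf3 included, and 12 residual degrees of freedom. Fold changes on this scale understate the change of low genes. Tests were two-sided with Benjamini-Hochberg adjustment over all genes, called under 0.05. The spike-in comparison used an exact permutation test. Level differences elsewhere came from separate fits of 24 time course libraries (21244 genes) and 18 cell type libraries (17985 genes). They were added after seeing the data. Libraries of the same replicate number deviated together in 28 of 28 pairs of groups (correlation 0.137 to 0.389), so the numbers were read as a pairing.

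Named genes were Ythdf1, Ythdf2, Ythdf3, Tead2 and 12 per direction for persistence (adjusted p under 0.05, the same sign at both times, at least 5 TPM, no clone or model names, filled by smallest unadjusted p), with 4 per direction for single times, their difference and shYthdf3, and 2 per list. Some of the genes so taken are not reported here. The members, lists and tests were chosen with earlier results of these data known. The lists comprised 39 lists of 706 entries, and zinc finger genes by symbol. The method was tested on simulated data. Alternatives were a pseudocount of 0.1, no filter, median-ratio scaling, a replicate block, the 16 libraries alone, spike-in scaling, and leaving out each library. Coordinates were matched by symbol in RefSeq (GRCm38.p6).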

Additional observations from a re-analysis of the deposited data

Results flagged for a closer look

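Persistence differed between shYthdf2 and shYthdf3 in the limma fit for 9 genes, by the test of the difference itself over all genes. Values are persistence under shYthdf2 minus that under shYthdf3. It was 2.25 for Ppp4c and 2.15 for Pcbp1, which kept less under shYthdf3, and it was 3.18 for Gm12231 and 1.66 for Gm2531. It was -1.88 for Etfdh, -1.87 for Uchl3, -1.52 for Arpc1a, -1.05 for Snx3 and -0.94 for Morf4l2, which kept less under shYthdf2. Gm12231 was listed at 0 in all shLuc libraries and Gm2531 in all shLuc and shYthdf2 libraries. The Gm2531 value therefore comes from the shYthdf3 libraries alone and compares no amount kept under shYthdf2.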

How the results depend on the processing

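Etfdh, Snx3 and Ywhag kept their direction in every alternative run. Their calls were lost with spike-in scaling and with the 16 libraries alone, and those of Snx3 and Ywhag with median-ratio scaling. The count of genes called for persistence, 3, became 5 with a pseudocount of 0.1 or no filter, 1 with median-ratio scaling, and 0 with the 16 libraries alone or spike-in scaling. At 4 h (1) it was 8 with no filter, and at 8 h (4) 2 with median-ratio scaling and 0 with the 16 libraries alone. For the difference of times (0) it was 1 with no filter. Against shYthdf3 (9) it was 24 with no filter, 5 with median-ratio scaling and 0 with spike-in scaling. The actinomycin D change with shLuc (6414) gave 10654 with spike-in scaling. In DMSO (66) 30 passed with median-ratio scaling, 33 with the 16 libraries alone and 4 with spike-in scaling, and in actinomycin D (541) 18 with spike-in scaling. At day 1 of the time course (5) 12 passed with a pseudocount of 0.1, 17 with no filter and 11 with median-ratio scaling. The gap between stability classes (0.13) was 0.21 with spike-in scaling. The cause of these shifts was not tested. With the replicate block, 10 genes passed for the mean, 3 at 4 h, 9 at 8 h, 22 against shYthdf3, 331 in DMSO, 1381 in actinomycin D and 26 at day 1. Of the 12 genes with negative persistence 3 passed with it on days 3 and 5, in place of 1. It moved no other count over all genes by over 1.5 times.

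Leaving out single libraries gave 0 to 9 genes for the mean, 0 to 5 at 4 h, 0 to 4 at 8 h, 0 to 2 for the difference of times and 2 to 10 against shYthdf3. It gave 37 to 72 in DMSO, 291 to 546 in actinomycin D, 2 to 6 at day 1 (2 without the shLuc or the shYthdf2 day 1 library numbered 2), and a gap of stability classes of -0.028 to 0.28. Values near 0 changed sign in such fits, none of them called. They ran from -0.088 to 0.71 for Ythdf3, -0.020 to 0.41 for Prkag2, -0.072 to 1.37 for S100a3, -0.17 to 0.12 for Rnf41, -0.034 to 0.36 for Sox2 and -0.14 to 1.23 for Tnnt1. Spike-in scaling turned Rnf41 to 0.25, Cox7a2 to 0.076, Stmn2 to 0.19 and Ly6a to 0.15, beside a shift of 0.21 in the median of all genes. In the untreated libraries, 10 to 12 of the 12 genes with negative persistence were lower under every alternative run.

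Limits are the 2 libraries per group, the single hairpin label per target, and an unknown depth. TPM sets each library to the same total, so an overall loss of RNA is visible only through spike-ins, where the test between hairpins could not reach 0.05.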

Other observations

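Some genes of the lists differed in level between the hairpins in both treatments, with no called persistence. H19, an imprinted noncoding RNA, was higher with shYthdf2 by 1.07 in DMSO (limma adjusted p = 6.72e-04) and by 1.10 in actinomycin D (1.58e-04), with a persistence of 0.03. Cnn2, an actin-binding calponin, was higher by 0.86 and 0.84, with a persistence of -0.02. Col6a3, a chain of type VI collagen, was lower by 1.87 in DMSO (limma adjusted p = 0.00546) and by 2.23 in actinomycin D (3.77e-04), with a persistence of -0.35 ± 0.403 (SE) and means of 51.7 TPM with shLuc and 13.9 TPM with shYthdf2 in DMSO.

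Other genes of the lists passed in actinomycin D alone. Ccnd3, a D cyclin, was higher with shYthdf2 by 1.31 (limma adjusted p = 0.00371), and its mean was 165 TPM with shLuc and 405 TPM with shYthdf2. The chemokine Ccl7 was higher by 1.297 and the growth factor Csf1 by 1.01. Mlx, a partner of glucose-sensing factors, was lower by 1.501 and the crosslinking enzyme Lox by 1.72. Whether these differ between the treatments is the persistence test, which none of these 5 passed.

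Mras and Ppfibp1, named after their values were seen, passed only with the replicate block. Mras, a Ras-family GTPase, had a persistence of -1.52 ± 0.693 (SE), with 71.4 and 41.2 TPM in shLuc DMSO 4 h and 26.8 and 6.76 TPM in shYthdf2 DMSO 4 h.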
